A study of Mus musculus with 16 samples.

Results

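The genes described here are carriers, exporters, sensors and storage proteins of cholesterol: *Apoe*, *Apoc1*, *Apod*, *Clu*, *Abcg1*, *Nr1h3*, *Ch25h*, *Soat1* and *Plin2*. They were chosen by name, as apolipoproteins and genes of cholesterol export, with earlier results of these data known. All 9 were found among the 18167 genes of the spinal cord table. RNA-Seq was done on the spinal cords of 16 transgenic mice, each sequenced as its own library, to compare a model of amyotrophic lateral sclerosis with its control line before symptoms and at the end of disease. Mutant mice, on C57BL/6N with the line Tg(Prnp-PFN1*G118V)838Kiaei/J, carried human profilin1 with the G118V change. Control mice, on C57BL/6N with the line Tg(Prnp-PFN1)850Kiaei/J and called wild-type, carried unchanged human profilin1, so that every mouse had a human transgene. Both transgenes were driven by an expression vector of the mouse prion protein gene, and each genotype was represented by 1 line. The 3 mutant young (MY) and 3 wild-type young (WY) mice were 50 days old. The 5 mutant old (MO) mice were taken at 175 to 245 days, when they could no longer right themselves, and the 5 wild-type old (WO) mice at 190 to 294 days. Batch 1 held all the young mice with 3 MO and 3 WO mice, and batch 2 held the remaining old mice (MO4, MO5, WO4 and WO5). The WO mice were 190 days old in batch 1 and 294 days old in batch 2, so their age and batch cannot be told apart. Differences within batch 2 set MO mice of 224 and 175 days against these older WO mice.

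Cholesterol does not cross the blood-brain barrier, so the nervous system makes its own and passes it between cells on lipoprotein particles built around apolipoprotein E, which come mainly from astrocytes and, in disease, also from microglia. Cells that take up cholesterol-rich debris such as myelin either hand the sterol to apolipoproteins through transporters of the ABC family, or store it as esters in lipid droplets. Oxysterols made from cholesterol activate the LXR nuclear receptors, which switch on the genes of export, *Apoe* and *Abcg1* among them.

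All values are log2(1 + FPKM) as deposited after batch correction, where FPKM is a level per length of transcript, and log2(FC) is the difference of group means on that scale. How many reads lie behind each gene is unknown, and errors are those of the spread between mice. All mice are labelled male, but 1 library goes against that label. In MO5, *Xist*, the RNA of the inactive X chromosome, was at 3.21, and none of the other 15 mice exceeded 0.37. The Y-linked gene *Ddx3y* was at 1.95 in MO5 and at 4.06 or more in the others. The changes of the 9 genes in comparisons with MO mice, and the counts of the gene lists where they differ, are therefore also given without MO5. Orders of levels, correlations and the genes around *Apoe* other than apolipoprotein genes are given with all mice only.

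At end stage, *Apoe*, *Apoc1*, *Apod*, *Clu*, *Ch25h* and *Plin2* rose in mutant spinal cord. These 6 of the 9 genes passed the thresholds (limma, Benjamini-Hochberg FDR up to 0.05 and a fold change of 1.5 or more) upward in MY vs. MO, where 4.11% of all genes rose and 0.787% fell. The same 6 genes passed upward in WO vs. MO, where 4.08% of all genes rose and 0.517% fell. These comparisons share the MO mice and are not independent. Each of the comparisons gave 6 genes again without MO5. The median log2(FC) of the 9 genes was 1.04 in MY vs. MO and 1.09 in WO vs. MO, against 0.0047 and 0.00035 over all genes. In 7 of the 9 genes, every one of the 5 MO mice was above every one of the 11 other mice, an arrangement found in 7.58% of all genes. Because the genes were chosen with earlier results of these data known, the shares over all genes are no test of the set. In spinal cord homogenate, more cells of a type and more RNA per cell cannot be told apart.

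*Apoe*, on chromosome 7 (19696109 to 19699188, GRCm38), encodes the main lipid carrier of the nervous system. In the MO mice it was at 12.58, 12.57, 12.82, 11.59 and 12.13 (MO1 to MO5). In the MY mice it was at 10.35, 10.52 and 10.47, and in the WO mice at 10.57, 10.38, 10.44, 10.33 and 10.21. The lowest MO mouse, MO4, was still above the highest of the other mice, WY1 at 10.72. Mean FPKM was 5395 ± 1624 (SD, n = 5) in MO and 1342 ± 123 (SD, n = 5) in WO. By mean level, *Apoe* ranked 13 among all genes in WO and 3 in MO. The log2(FC) was 1.89 (SE 0.25, limma FDR 0.00126) in MY vs. MO and 1.95 (SE 0.20, limma FDR 7.05e-05) in WO vs. MO, a fold change of 3.86. Without MO5 these were 1.94 and 2.00. Within WO vs. MO, the difference was 2.19 in batch 1 and 1.59 in batch 2.

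*Apoc1*, next to *Apoe* on the chromosome (19689481 to 19692660), encodes a small exchangeable apolipoprotein that slows the clearance of lipoproteins. Its level was 5.72, 5.54, 5.65, 4.15 and 5.60 in the MO mice. It was 2.84, 3.50 and 3.30 in the MY mice and 3.02, 3.51, 3.45, 2.84 and 2.80 in the WO mice. MO4 stood apart below the other MO mice, yet above the highest other mouse, WY1 at 3.61. For *Apoc1* the log2(FC) was 2.12 (SE 0.36, limma FDR 0.00368) in MY vs. MO and 2.21 (SE 0.29, limma FDR 0.000324) in WO vs. MO. Leaving out MO5 gave 2.05 and 2.14, and leaving out MO4 raised them to 2.42 and 2.51. The WO vs. MO difference was 2.31 in batch 1 and 2.06 in batch 2.

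*Apod*, on chromosome 16 (31296192 to 31314808), encodes a lipocalin that binds small lipids and is made by glia. The MO mice were at 11.00, 10.39, 9.88, 9.19 and 10.06. The MY mice lay within 8.50 and 8.57, and the WO mice were at 8.59, 8.32, 8.52, 8.45 and 8.38. The MO mice were all higher, and no other gene of the set was so spread among them, from 583 FPKM in MO4 to 2047 FPKM in MO1. Its log2(FC) was 1.57 (SE 0.34, limma FDR 0.0106) in MY vs. MO and 1.65 (SE 0.27, limma FDR 0.00106) in WO vs. MO. The MY vs. MO call was lost when limma tested against a fold change of 1.2 (FDR 0.0541). Over all alternatives, the FDR of *Apod* in that comparison ran from 0.000531 to this value. Without MO5 the changes were 1.58 and 1.66. By batch, the WO vs. MO difference of *Apod* was 1.95 in batch 1 and 1.21 in batch 2.

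*Clu*, on chromosome 14 (65968483 to 65981547), encodes clusterin (apolipoprotein J), a secreted chaperone found on the lipoproteins of the cerebrospinal fluid. Its level was 10.10, 9.98, 10.02, 9.64 and 9.91 in the MO mice. The MY mice were at 9.06, 9.08 and 9.12 and the WO mice at 9.19, 8.89, 9.06, 8.97 and 8.87. The groups were far apart relative to their spread, although the fold change was the smallest of the 6 genes. For *Clu* the log2(FC) was 0.84 (SE 0.09, limma FDR 0.000611) in MY vs. MO and 0.93 (SE 0.09, limma FDR 4.86e-05) in WO vs. MO, and without MO5 it was 0.85 and 0.94. Within batches, the WO vs. MO difference of *Clu* was 0.98 and 0.86.

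**Figure D1:**
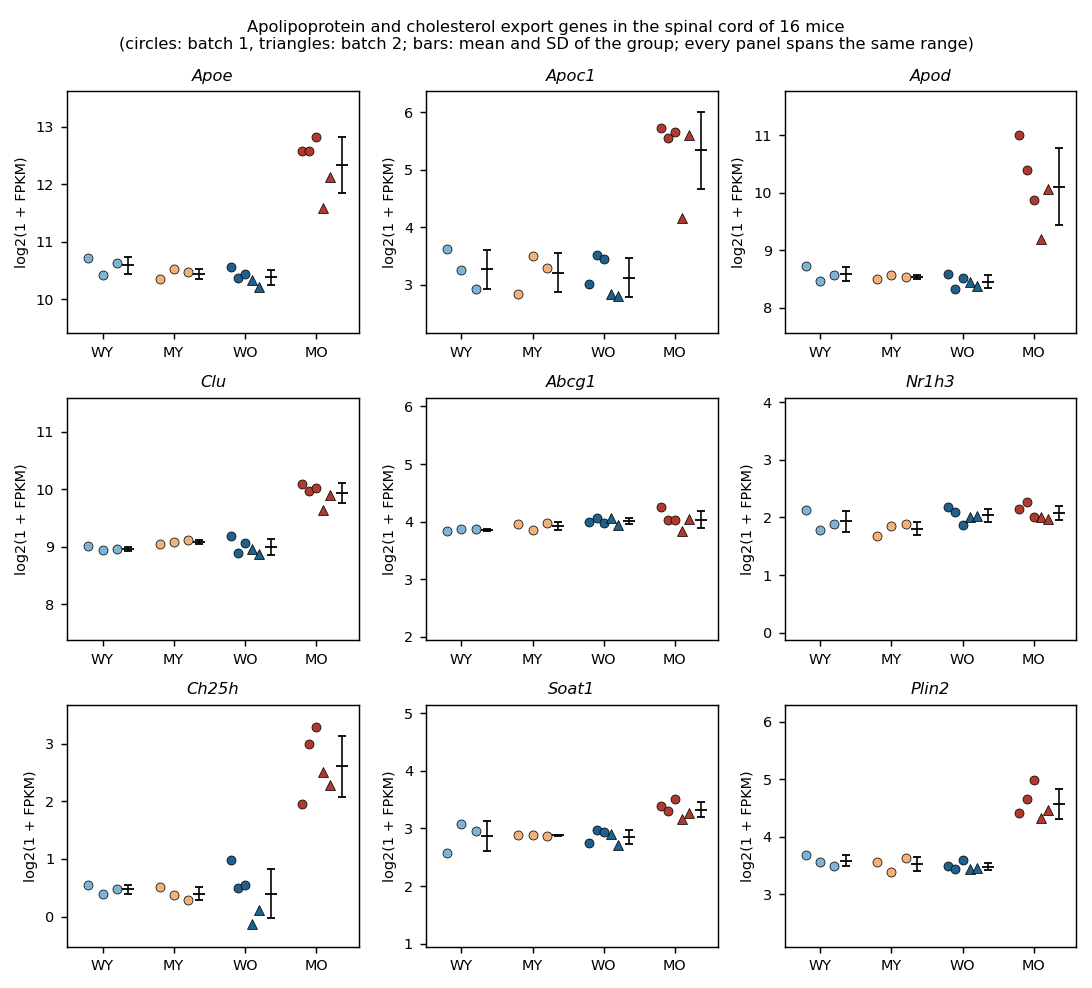
Level of each of the 9 genes in every mouse, as log2(1 + FPKM) on the vertical axis and the group on the horizontal axis, with circles for batch 1, triangles for batch 2 and bars for the group mean and SD. The 5 MO mice are above all 11 other mice in 7 of the panels, and overlap them for *Abcg1* and *Nr1h3*.

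The exporter and the sensor in the set gave no such difference. *Abcg1*, on chromosome 17 (31057675 to 31117988), encodes a transporter that passes cholesterol to lipoprotein particles. The MO mice were at 4.25, 4.02, 4.03, 3.84 and 4.04. The WO mice were at 3.99, 4.06, 3.98, 4.06 and 3.94 and the MY mice at 3.95, 3.85 and 3.97. MO1 was above all mice of the other groups, and MO4 (3.837) was just below the lowest of them, WY1 (3.841). Its log2(FC) was 0.11 (95% CI -0.08 to 0.30, limma FDR 0.387) in MY vs. MO and 0.03 (95% CI -0.12 to 0.17, limma FDR 0.803) in WO vs. MO. These intervals lie below the threshold of 0.58 for a fold change of 1.5. The WO vs. MO difference was 0.09 in batch 1 and -0.06 in batch 2. It was -0.03 without MO1, and without MO5 it stayed at 0.03.

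*Nr1h3*, on chromosome 2 (91184061 to 91202834), encodes LXR alpha, the oxysterol receptor of macrophages and microglia. It was at 2.15, 2.27, 2.01, 2.02 and 1.98 in the MO mice. In the WO mice it was at 2.18, 2.09, 1.87, 2.01 and 2.02, and in the MY mice at 1.68, 1.85 and 1.88. The MO mice overlapped the WO mice but were all above the MY mice. In MY vs. MO the log2(FC) was 0.28 (95% CI 0.10 to 0.46, limma FDR 0.0322), a fold change of 1.21 that is under the threshold, and it was 0.31 without MO5. With quantile normalization it was 0.17 (limma FDR 0.170), and the FDR was also above 0.05 with the replicate block (0.0530) and without MO1, MY1, MY2 or MY3 (0.0511 to 0.137). Over all alternatives but treat (limma FDR 1), the FDR of *Nr1h3* ran from 0.0207 to 0.170. In WO vs. MO it was 0.05 (95% CI -0.11 to 0.20, limma FDR 0.681), with 0.09 in batch 1 and -0.02 in batch 2. Without MO5 this was 0.07, and with quantile normalization it was -0.04.

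*Ch25h*, on chromosome 19 (34473778 to 34475164), encodes cholesterol 25-hydroxylase, which makes the oxysterol 25-hydroxycholesterol and is induced in activated macrophages and microglia. The MO mice were at 1.96, 2.99, 3.29, 2.51 and 2.29. The MY mice were at 0.51, 0.37 and 0.29, and the WO mice at 0.98, 0.49, 0.55, -0.14 and 0.12. Outside MO the gene was thus close to 0, whereas each MO mouse was well above the highest of them, WO1. The log2(FC) was 2.21 (SE 0.27, limma FDR 0.000966) in MY vs. MO and 2.21 (SE 0.27, limma FDR 0.0002) in WO vs. MO. Since 1 is added to FPKM, these differences understate the change of so low a gene. With 0.1 added in place of 1 they were 3.66 and 3.85. Without MO5 they were 2.29 and 2.29. The WO vs. MO difference was 2.07 in batch 1 and 2.41 in batch 2.

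Storage was represented by *Soat1* and *Plin2*. *Soat1*, on chromosome 1 (156424525 to 156474331), encodes the enzyme that esterifies cholesterol in the endoplasmic reticulum. It was at 3.38, 3.30, 3.51, 3.16 and 3.27 in the MO mice. The MY mice were all at 2.88, and the WO mice were at 2.75, 2.97, 2.95, 2.90 and 2.71. Every MO mouse was above every other mouse, the nearest being WY2 at 3.07. The difference passed the FDR but not the fold change threshold. The log2(FC) was 0.45 (SE 0.07, limma FDR 0.00319) in MY vs. MO and 0.47 (SE 0.07, limma FDR 0.000892) in WO vs. MO, a fold change of 1.39. Without MO5 it was 0.46 and 0.49. In batch 1 the WO vs. MO difference of *Soat1* was 0.51 and in batch 2 it was 0.41.

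*Plin2*, on chromosome 4 (86648386 to 86670060), encodes perilipin 2, which coats lipid droplets and is stable only when bound to them. The MO mice were at 4.41, 4.65, 4.99, 4.33 and 4.46. The MY mice were at 3.56, 3.38 and 3.63, and the WO mice at 3.48, 3.43, 3.60, 3.43 and 3.46. The MO mice were again all higher, with a mean of 23.1 FPKM against 10.2 FPKM in WO. The log2(FC) was 1.04 (SE 0.14, limma FDR 0.00151) in MY vs. MO and 1.09 (SE 0.11, limma FDR 6.43e-05) in WO vs. MO, and 1.07 and 1.11 without MO5. Within batches, the WO vs. MO difference of *Plin2* was 1.18 and 0.95.

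Ageing of wild-type mice and the mutation before symptoms moved none of the 9 genes past the thresholds. In WY vs. WO, 0 of 9 genes passed, where limma called 0.0495% of all genes upward and 0.204% downward, and 1 of the 9 had an unadjusted p under 0.05, as did 2447 of all genes. That gene was *Abcg1*, with a log2(FC) of 0.15 (95% CI 0.05 to 0.24, limma FDR 0.167). For *Apoe* the WY vs. WO change was -0.21 (95% CI -0.41 to 0.00056, limma FDR 0.374). Within batch 1, the WY vs. WO difference was -0.13 for *Apoe* and 0.15 for *Abcg1*, and batch 2 held no WY mouse.

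In WY vs. MY, 0 of 9 genes passed, where limma called 0.0055% of all genes upward, which was 1 gene, and 0 genes downward. Of the 9 genes, 1 had an unadjusted p under 0.05, as did 1301 of all genes. It was *Clu*, with a log2(FC) of 0.12 (95% CI 0.02 to 0.22, limma FDR 0.666). The changes of the 9 genes in WY vs. MY lay between -0.14 for *Apoe* and 0.12 for *Clu*. The widest of the 9 intervals was that of *Apoc1* (95% CI -0.60 to 0.49).

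Whether the change from young to old mice differed between the genotypes was tested by the interaction (MO - MY) - (WO - WY) in 1 fit of all 16 mice. In mutant mice this change holds end-stage disease as well as age, and these cannot be told apart. The interaction shares its mice with the comparisons above and is not independent of them. It rose in the same 6 genes, where 4.65% of all genes had a positive and 0.963% a negative interaction past the thresholds. The estimate was 2.28 for *Ch25h* (SE 0.38, limma FDR 0.000862), 2.27 for *Apoc1* and 2.09 for *Apoe*. It was 1.71 for *Apod*, 1.14 for *Plin2* and 0.81 for *Clu*. The *Clu* estimate fell to 0.56 with quantile normalization, under the fold change threshold. *Soat1* had an estimate of 0.46 (limma FDR 0.0369; 0.61, past the threshold, without WY1), *Nr1h3* of 0.18 (limma FDR 0.381) and *Abcg1* of -0.04 (limma FDR 0.856). The same 6 genes passed without MO5, where the largest FDR was 0.00914. Over all genes, 82.8% of the interactions past the thresholds were positive, and 72.1% with quantile normalization.

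Per length of transcript, the order of the levels was the same in WY, MY and WO. *Apoe* was highest, followed by *Clu*, *Apod*, *Abcg1*, *Plin2*, *Apoc1*, *Soat1*, *Nr1h3* and *Ch25h*. The ranges over mice overlapped between *Plin2* and *Apoc1* and between *Apoc1* and *Soat1* in each of these groups, so these neighbours did not differ beyond their spread, and no other neighbours overlapped. In MO, *Apod* at a mean of 10.10 came next after *Apoe*, with *Clu* at 9.93 behind it. *Apoc1* stood above *Plin2* and *Abcg1*, and *Ch25h* above *Nr1h3*. In MO, the neighbours *Apod* and *Clu*, *Apoc1* and *Plin2*, *Soat1* and *Ch25h*, and *Ch25h* and *Nr1h3* overlapped in their ranges.

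The MO mice also differed among themselves. MO4, of batch 2 and 224 days old, was the lowest MO mouse in 7 of the 9 genes, and in 6 of the 7 genes whose MO mice stood above all others. The exception was *Ch25h*, where MO1 was lowest. The highest MO mouse was MO3, aged 245 days, in 4 genes (*Apoe*, *Ch25h*, *Soat1* and *Plin2*) and MO1, aged 198 days, in 4 (*Apoc1*, *Apod*, *Clu* and *Abcg1*). MO5, of batch 2 and 175 days old, was below the 3 MO mice of batch 1 for *Apoe*, *Clu*, *Soat1* and *Nr1h3*, but not for *Apoc1*, *Apod*, *Ch25h*, *Plin2* or *Abcg1*. In batch 1 alone, the MY vs. MO log2(FC) was 2.21 for *Apoe*, 2.43 for *Apoc1*, 1.89 for *Apod* and 0.95 for *Clu*. It was 2.35 for *Ch25h*, 1.16 for *Plin2*, 0.52 for *Soat1*, 0.34 for *Nr1h3* and 0.17 for *Abcg1*. The part of age, batch and sex in the spread among the MO mice was not tested.

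*Apoe* and *Apoc1* share a position that their choice did not use. With *Apoc4* and *Apoc2* they lie on the minus strand of chromosome 7 within 27610 bases (19671579 to 19699188, GRCm38). *Apoc2* encodes the activator of lipoprotein lipase, and *Apoc4* a minor apolipoprotein made chiefly by the liver. *Apoc2* was at 2.82, 3.01, 3.44, 1.78 and 2.39 in the MO mice and at 0.28 or less in the 11 others, of which 7 shared a single value, 0.11, and 2 were below 0. *Apoc4* was at 3.33, 3.05, 3.36, 1.34 and 2.91 in the MO mice and at 0.40 or less in the others. Outside MO, both genes were thus at the floor of the table, and MO4 was again the lowest MO mouse. Genes at 0 FPKM in 8 or more of the 16 mice had been dropped by the authors. If the shared value stands for 0 FPKM, *Apoc2* and *Apoc4* stayed in the table only through the MO mice, so their differences are given as a description, with no test. The log2(FC) in WO vs. MO was 2.68 for *Apoc2* and 2.81 for *Apoc4*, and in MY vs. MO it was 2.58 and 2.69. Without MO5 these were 2.76 and 2.78, and 2.65 and 2.66. The WO vs. MO difference was 2.92 in batch 1 and 2.32 in batch 2 for *Apoc2*, and 3.14 and 2.31 for *Apoc4*. Both overlap the annotated gene Gm44805 on the same strand, so that the division of reads between them is uncertain.

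The genes around this cluster were taken by position, within 100 kb of *Apoe*, after the values of the cluster had been seen. Of the 10 genes of the table in that stretch, the 6 that are not apolipoprotein genes did not pass the thresholds in WO vs. MO or in MY vs. MO. *Tomm40*, whose gene ends nearest to *Apoe*, had a log2(FC) of -0.08 in WO vs. MO and -0.0025 in MY vs. MO. *Clptm1*, on the side of *Apoc2*, had -0.02 and -0.06. The largest difference among these 6 was that of *Relb*, an NF-kappaB subunit, with 0.37 (limma FDR 0.00396) and 0.41 (limma FDR 0.0216), under the fold change threshold.

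**Figure D2:**
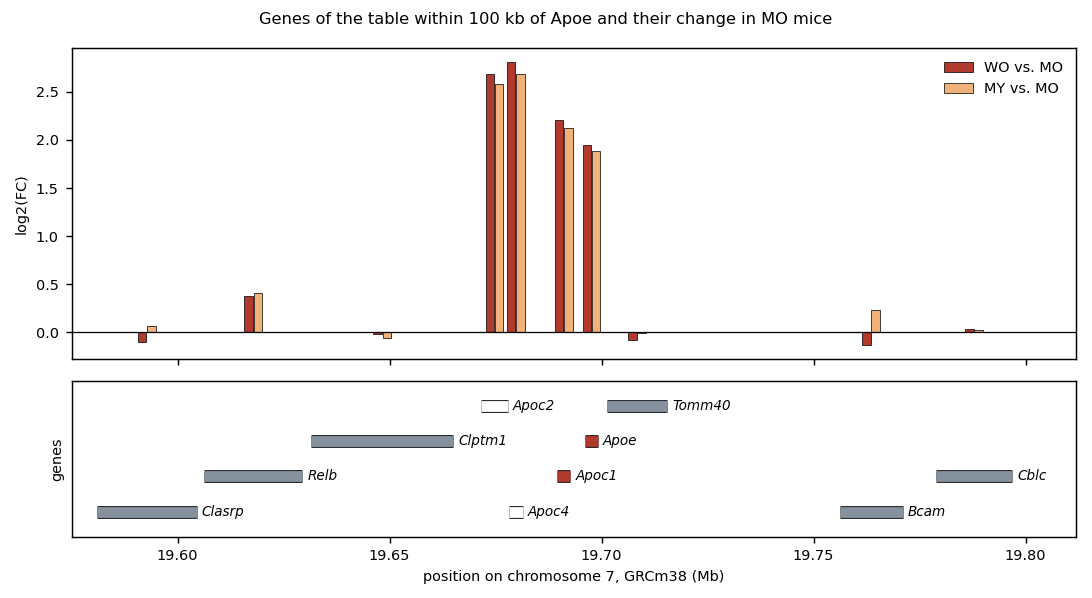
Genes of the table within 100 kb of *Apoe* by position on chromosome 7 in Mb (GRCm38; red, past the thresholds in WO vs. MO; white, near 0 outside MO and given with no test) and, above each gene, its log2(FC) in WO vs. MO (red bars) and MY vs. MO (orange bars). The bars of *Apoc2*, *Apoc4*, *Apoc1* and *Apoe* reach 1.89 to 2.81, and those of the 6 other genes lie between -0.13 and 0.41.

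The promoters of *Apoe*, *Apod*, *Ch25h* and *Plin2* are shown because these genes rose together. RefSeq promoters (GRCm38.p6, from 250 bases before to 50 after the start) were matched by symbol for 6 of the 9 genes, with 9 windows in all. Searched on both strands were GAGGAA, the core bound by the myeloid factor PU.1, AGGTCA, the element of a nuclear receptor half-site, AGGTCA repeated after any 4 bases, the element that LXR binds, and CACGTG, an E-box bound by TFEB, MITF and USF factors. GAGGAA is held by 28.3% of the 32851 promoters of the table, AGGTCA by 16.3%, CACGTG by 7.15% and the spaced repeat, which contains AGGTCA, by 0.0152%. In the windows shown, GAGGAA occurred 2 times for *Apoe* and 2 times for *Apod*, and AGGTCA and CACGTG 1 time each for *Plin2*. Among the windows not shown, GAGGAA was found 1 time at another start of *Apoe* and 1 time at 1 start of *Nr1h3*. The spaced repeat was in none of the 9 windows. Capitals mark the matches (TTCCTC and TGACCT are GAGGAA and AGGTCA on the other strand), and each sequence is written 5′ to 3′ on the minus strand, on which all 4 genes lie. A match describes letters in the window, not a bound site.
Apoe, chr7:19699139-19699438: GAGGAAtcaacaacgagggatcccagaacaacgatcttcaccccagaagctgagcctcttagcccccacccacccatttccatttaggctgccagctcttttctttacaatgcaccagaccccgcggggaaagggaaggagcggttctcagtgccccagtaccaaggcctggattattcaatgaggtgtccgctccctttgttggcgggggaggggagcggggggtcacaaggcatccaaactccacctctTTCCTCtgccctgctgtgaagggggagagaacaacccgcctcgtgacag
Apod, chr16:31314759-31315058: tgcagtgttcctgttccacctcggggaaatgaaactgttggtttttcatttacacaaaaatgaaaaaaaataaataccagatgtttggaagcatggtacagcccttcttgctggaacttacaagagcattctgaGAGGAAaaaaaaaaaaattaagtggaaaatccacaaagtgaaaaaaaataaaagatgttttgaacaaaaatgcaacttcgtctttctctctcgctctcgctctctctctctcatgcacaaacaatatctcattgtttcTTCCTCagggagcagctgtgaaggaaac
Ch25h, chr19:34475099-34475398: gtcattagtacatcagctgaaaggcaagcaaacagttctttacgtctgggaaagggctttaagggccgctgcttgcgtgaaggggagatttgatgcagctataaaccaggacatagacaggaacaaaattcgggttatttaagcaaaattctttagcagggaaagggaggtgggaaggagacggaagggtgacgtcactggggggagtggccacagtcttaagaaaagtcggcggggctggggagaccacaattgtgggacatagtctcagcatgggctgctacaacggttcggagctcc
Plin2, chr4:86670010-86670309: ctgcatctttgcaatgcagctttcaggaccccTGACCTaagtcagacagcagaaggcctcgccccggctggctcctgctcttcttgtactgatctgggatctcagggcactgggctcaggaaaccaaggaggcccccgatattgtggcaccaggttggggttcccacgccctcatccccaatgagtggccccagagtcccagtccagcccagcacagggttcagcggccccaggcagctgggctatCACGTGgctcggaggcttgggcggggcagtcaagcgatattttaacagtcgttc

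Genes with related roles were compared as lists, and none of those past the thresholds in MY vs. MO or WO vs. MO lost its call without MO5. Among other apolipoproteins and enzymes of lipoprotein remodelling, 20 genes were in the table, of which *Apoc2* and *Apoc4* are left out of the counts because they lie near 0 outside MO. Of the other 18, 2 rose in MY vs. MO and 2 in WO vs. MO, *Lpl* and *Apobr* in both, and none fell. With 0.1 added to FPKM in place of 1, *Apoh* also rose and 1 gene of the list fell in WO vs. MO. *Lpl*, lipoprotein lipase, releases fatty acids from lipoproteins. It was at 3.76, 4.40, 4.79, 3.91 and 3.90 in the MO mice and at 2.21 or less in the others. Its log2(FC) was 2.06 (SE 0.22, limma FDR 0.000566) in MY vs. MO and 2.47 (SE 0.19, limma FDR 2.2e-05) in WO vs. MO, with 2.49 in batch 1 and 2.44 in batch 2. *Apobr*, a receptor for apolipoprotein B on macrophages, had 0.65 and 0.65, and with quantile normalization 0.54 and 0.56, under the fold change threshold. The median of these 18 genes was 0.08 in MY vs. MO and 0.13 in WO vs. MO.

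Among other exporters of sterols and lipids, 2 of 15 genes rose in each of these comparisons and none fell. In MY vs. MO, the number that rose was 3 without MO5 and 3 with 0.1 added to FPKM. *Abca1*, the transporter that loads cholesterol onto lipid-poor apolipoproteins and a target of LXR like *Abcg1*, was at 4.30, 4.18, 4.23, 3.33 and 3.94 in the MO mice. In the WO mice it was at 2.62, 2.98, 2.76, 2.67 and 2.36 and in the MY mice at 2.54, 2.59 and 2.54. Its MO mice were all higher, in contrast to those of *Abcg1*. The log2(FC) of *Abca1* was 1.44 (SE 0.20, limma FDR 0.0017) in MY vs. MO and 1.32 (SE 0.18, limma FDR 0.000401) in WO vs. MO, with 1.45 in batch 1 and 1.12 in batch 2. The difference between these transporters in their change was not tested. *Abca8a* rose in MY vs. MO (0.95) and also in WY vs. WO (1.22, limma FDR 0.0179), where it was the 1 exporter past the thresholds. *Abca9* rose in WO vs. MO (0.64), and its change with quantile normalization was 0.55. The list medians were -0.02 and -0.04.

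Of 18 other sterol-sensing nuclear receptors and LXR targets, 2 rose and 1 fell in MY vs. MO and 1 rose in WO vs. MO. *Mylip*, an LXR target that limits lipoprotein uptake, had a log2(FC) of 0.69 (limma FDR 0.00935) and 0.73 (limma FDR 0.000859), the latter 0.93 in batch 1 and 0.42 in batch 2. *Srebf1*, the LXR target that drives fatty acid synthesis, rose in MY vs. MO (0.66), whereas *Scd1*, a fatty acid desaturase, fell by 0.61. The list medians were 0.03 and 0.0017. Of 17 other oxysterol enzymes and receptors, 1 rose in each comparison and none fell. It was *Gpr183*, the receptor of a dihydroxycholesterol made from the product of *Ch25h*, with 0.93 (SE 0.08, limma FDR 0.00027) in MY vs. MO and 1.08 (SE 0.08, limma FDR 2.2e-05) in WO vs. MO, with 1.06 and 1.11 in the batches. The medians were -0.05 and -0.05.

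Of 19 other genes of sterol storage and lipid droplets, 0 passed in MY vs. MO and 0 in WO vs. MO. There, 2 of them in each comparison had a limma FDR of at most 0.05 without the fold change, and the list medians were 0.0096 and 0.03. With 0.1 added to FPKM, *Soat2* rose in WO vs. MO (0.96). Of 10 genes of lysosomal cholesterol release, 0 passed in MY vs. MO and 1 rose in WO vs. MO, with list medians of 0.04 and 0.02. This was *Npc2*, which hands cholesterol out of the lysosome, at 5.97 to 6.33 in the MO mice and 5.26 to 5.43 in the WO mice. Its log2(FC) was 0.78 (SE 0.06, limma FDR 2.4e-05) in WO vs. MO, with 0.83 and 0.70 in the batches, and 0.46 (limma FDR 0.00357) in MY vs. MO.

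Of 18 lipoprotein and sterol uptake receptors, 3 rose and 1 fell in MY vs. MO and 2 rose in WO vs. MO. *Trem2*, a microglial receptor that binds lipids and apolipoproteins, was at 5.88 to 7.02 in the MO mice and at 4.00 or less in the others. Its log2(FC) was 2.72 (limma FDR 0.000285) in MY vs. MO and 2.73 (limma FDR 2.2e-05) in WO vs. MO, with 2.71 in batch 1 and 2.76 in batch 2. *Msr1*, a scavenger receptor for modified lipoproteins, had 1.24 and 1.31. *Stab1*, another scavenger receptor, rose in MY vs. MO (0.66; 0.54 with quantile normalization). With 0.1 added to FPKM, *Cd36* and *Olr1*, scavenger receptors of low level, rose in MY vs. MO (1.07 and 1.11) and in WO vs. MO (1.35 and 1.26), the latter with *Stab1* (0.86). The list medians were -0.02 and -0.0011.

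Sterol synthesis genes fell where they passed. Of 24, 12 fell in MY vs. MO, 2 in WO vs. MO and 3 in WY vs. WO, and none rose. The largest decreases in MY vs. MO were those of *Hmgcs1*, *Idi1* and *Cyp51*, enzymes of the mevalonate and lanosterol steps, with log2(FC) of -1.51, -1.15 and -0.95. In WO vs. MO, *Idi1* fell by 0.65 (-0.82 in batch 1, -0.39 in batch 2). In WY vs. WO, *Hmgcs1* (-0.998), *Msmo1* (-0.63) and *Idi1* (-0.59) fell. With quantile normalization *Hmgcs1* (limma FDR 0.0698) and *Idi1* (-0.57) did not pass, and *Hmgcs1* fell by 0.70 past the thresholds in WO vs. MO (-0.67, limma FDR 0.0507, without it). With 0.1 added to FPKM in place of 1, the FDR of *Hmgcs1* in WY vs. WO was 0.0630. The list medians were -0.61 in MY vs. MO, -0.37 in WO vs. MO and -0.40 in WY vs. WO. In WY vs. MY, none of the genes in the lists of related genes passed the thresholds.

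**Figure D3:**
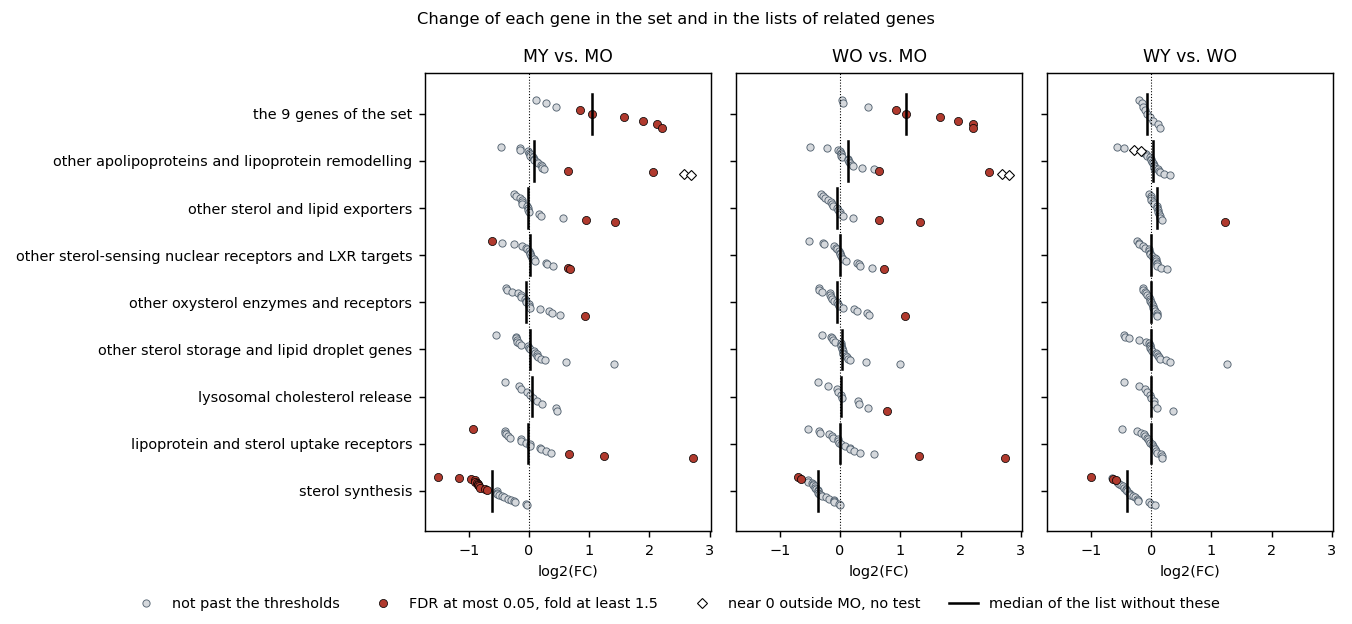
log2(FC) of each gene (horizontal axis) in the set of 9 and in the lists of related genes (rows) for MY vs. MO, WO vs. MO and WY vs. WO, with red points past the thresholds, white diamonds for *Apoc2* and *Apoc4* (near 0 outside MO, no test) and vertical strokes at the median of each list without these. The sterol synthesis list lies to the left, with medians of -0.61, -0.37 and -0.40, and the set of 9 to the right in the MO comparisons, with medians of 1.04 and 1.09.

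Markers of the cells that make these proteins moved in the same comparisons. Of 12 microglial markers, 8 rose in MY vs. MO and 8 in WO vs. MO, and their summed level was 378, 509, 547, 401 and 398 FPKM in the MO mice (MO1 to MO5). None of the other mice exceeded 204 FPKM (WO3). Without MO5, 8 passed in MY vs. MO, where *Tmem119* (0.56) lost its call and *P2ry13* (0.59) gained one, and 8 in WO vs. MO. In WY vs. WO, *Fcrls* fell by 0.91 (limma FDR 0.0461; 0.0796 with 0.1 added to FPKM). Of 12 astrocyte markers, 2 rose in MY vs. MO and 4 in WO vs. MO, while *Aqp4* fell by 0.65 in WY vs. WO (limma FDR 0.0281; 0.0616 with quantile normalization, 0.0515 with 0.1 added to FPKM). Their summed level was 4320, 5125, 4629, 4075 and 4234 FPKM in the MO mice and 2527 to 3126 FPKM in the others, and the most abundant, *Gfap*, averaged 2217 FPKM in MO and 724 FPKM in WO. The part of more microglia or astrocytes in the rise of the cholesterol genes was not tested.

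Of 9 markers of border-associated and blood-derived macrophages, 0 passed in either comparison, and 7 had a mean under 0.5 on the log2 scale. With 0.1 added to FPKM in place of 1, *Mrc1* and *Lyve1* rose in MY vs. MO (0.61 and 0.87) and in WO vs. MO (0.74 and 0.88). The list medians were then 0.36 and 0.62, against 0.10 and 0.15. Their summed level was 3.07 to 4.24 FPKM in the MO mice and 1.58 to 3.19 FPKM in the others, with *Pf4* as the most abundant (1.14 FPKM in MO). Adipocyte markers bear on *Plin2*, and liver markers on the apolipoproteins. Of the adipocyte markers, 2 were in the table, *Adipoq* and *Plin1*, and their summed level was at most 0.166 FPKM in any mouse. The 4 liver markers in the table summed to 2.46 to 5.11 FPKM in all mice but WO3 (23.3 FPKM). *Apoa2* was the most abundant by its mean, and *Alb* and *Ttr* had means under 0.5, but *Ttr* was at 4.42 in WO3, where *Apoa2* was at 1.81. WO3 was the highest WO mouse for *Plin2*, at 3.60 against 3.43 to 3.48 in the others, and the lowest for *Nr1h3*, at 1.87. Its gap to the nearest WO mouse was 0.67 and 0.45 of the range, under the limit of 0.71 for an outlier. None of the adipocyte and liver markers passed the thresholds, except *Apoh* in WO vs. MO (0.74) with 0.1 added to FPKM.

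Of 12 oligodendrocyte markers, 5 fell in MY vs. MO, 2 in WO vs. MO and 5 in WY vs. WO. In MY vs. MO, *Mag* also fell without MO5 (-0.66). Both calls in WO vs. MO were lost without MO5. *Ugt8a*, which makes the galactolipids of myelin, then had a limma FDR of 0.0543, and its difference was -1.03 in batch 1 and -0.40 in batch 2. The summed level of the 12 markers was 7537, 8128, 8213, 22906 and 22227 FPKM in the MO mice and 10031 (WO2) to 24538 FPKM (WO5) in the others, with 5954 FPKM in WO4. This sum follows *Mbp*, its most abundant gene, which was at 5.36 in WO4 and at 12.16 or more in the other 15 mice. *Mbp* was at 14.11, 14.14 and 14.22 in MO4, MO5 and WO5, the other mice of batch 2, and at 12.16 to 13.23 in the mice of batch 1. Batch correction was done with the WO4 value in the batch. Whether that value is a failed estimate was not tested, so the sums of the batch 2 mice may not be levels. Of 6 motor neuron markers, 1 (*Chat*) fell in WO vs. MO, and their mean summed level was 102 FPKM in MO and 129 FPKM in WO, with *Prph* as the most abundant. Of 10 neuronal markers 1 fell in each comparison (*Slc6a5*), and the sum, led by *Snap25*, was 2050 to 2256 FPKM in MO and 2585 to 2844 FPKM in WO.

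The remaining lists had few calls. Of 6 markers of oligodendrocyte precursors, *Gpr17* fell in MY vs. MO (-0.74, limma FDR 0.0390; 0.0514 with 0.1 added to FPKM) and in WY vs. WO (-1.07, limma FDR 0.0129), and 0 passed in WO vs. MO, with a mean sum of 68.5 FPKM in MO and 57.9 FPKM in WO and *Lhfpl3* as the most abundant. None passed among 8 markers of endothelium and pericytes (mean sum 69.4 FPKM in MO and 92.4 FPKM in WO, led by *Rgs5*). In WO vs. MO, however, *Cdh5* and *Rgs5* fell without MO5 (-0.60 and -0.66) and with 0.1 added to FPKM (-0.76 and -0.60), and *Cdh5* fell with quantile normalization (-0.67). None passed among 6 markers of meningeal fibroblasts (17.8 and 17.4 FPKM, led by *Dcn*). None passed among 6 of Schwann cells (13.8 and 11.1 FPKM, led by *Drp2*, with *Prx* and *Pmp2* at means under 0.5; *Pmp2* fell in MY vs. MO, -1.36, with 0.1 added to FPKM) or among 4 of blood (48.1 and 79.0 FPKM, led by *Hba-a1*), of which *Hba-a2* and *Hbb-bs* were near 0 in all 16 mice and could not pass. The blood sum was lowest in MO1, at 11.7 FPKM. None of the 5 sex genes passed, the most abundant being *Ddx3y*.

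Genes most like each of the 9 were found by Pearson's r of the log2 values over the 16 mice, as a description. Because the MO mice stand apart, any gene that is high in MO alone reaches a high r. *Apoe* was most like its neighbour *Apoc2* (r = 0.995), then *St14* and *Hvcn1*, and *Apoc1* most like *Apoc4* (r = 0.981), then *Rhoj* and *Slc43a3*. *Apod* was most like *Agt* (r = 0.987), *Serpina3m* and *Lcn2*, and *Clu* most like *C3* (r = 0.992), *Ano6* and *Apobr*. *Ch25h* was most like *Hexa* (r = 0.994), *Hcar2* and *Spp1*, and *Plin2* most like *Cd200r4* (r = 0.988), *Tec* and *Ptpn6*. *Soat1* was most like *Itpkb* (r = 0.963), *Amotl1* and *Lrig1*. The genes that did not separate the MO mice had other partners, *Bcr* (r = 0.956), *Elmsan1* and *Zcchc2* for *Abcg1* and *Max* (r = 0.906), 0610011F06Rik and *Rnaseh2a* for *Nr1h3*.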

How the data were processed

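Spinal cord RNA of 16 mice was analysed, with the mouse as the unit. The log2 values were used as deposited by the authors, who used Trimmomatic for cleaning, TopHat for alignment to mm10 and Cufflinks for FPKM, dropped genes at 0 FPKM in 8 or more of the 16 mice, added 1, took log2 and corrected for the 2 batches with ComBat. Tool versions, gene annotation and ComBat covariates are not given in the sources used here. Of the values, 915 were below 0 and 0 were exactly 0, and 0 columns were left unused. Neither read counts nor the human transgene is analysed here, and the depth behind a gene is unknown.

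Each comparison was fitted on its own groups over all 18167 genes in R 4.3.3 with limma 3.58.1 (two-sided, second group minus first), and the interaction on all mice. The code was tested on simulated data. Positions came from GENCODE M21 (GRCm38, the mm10 build), and 17419 symbols matched. *Soat1*, *Nr1h3*, *Abcg1* and *Ch25h* overlap annotated non-coding genes. Libraries were strand-specific, and whether counting used strand is not given in the sources used here. FPKM per mouse was 2 to the power of the value minus 1, with negative results set to 0. Python 3.11.15 with pandas 2.3.3, NumPy 2.4.6 and matplotlib 3.10.9 was used.

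Named were all 9 genes, in each related list and comparison the called genes (at most the 3 largest increases and the 3 largest decreases), the 3 genes with the highest Pearson r to each of the 9, and the most abundant gene of each marker list. The results of some of these genes are not reported here. Other genes were named after their values were seen: the neighbours of *Apoe*, markers that passed, were low or led a sum, and genes whose call changed under an alternative. The 9 genes and the lists were chosen with earlier results of these data known. Alternatives were batch 1 only, batch as a term, genes with a mean of at least 1, 0.1 in place of the 1 added to FPKM, quantile normalization, 1 fit of all groups, an intensity trend, limma's treat (fold change 1.2), FDR alone, a block of replicate numbers, and leaving out each mouse.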

Additional observations from a re-analysis of the deposited data

Results flagged for a closer look

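In 1 of the 18 groups of 5 mice examined (9 genes, WO and MO), a mouse stood far from the others of its group. This was *Apoc1* in MO4, at 4.15, where the nearest MO mouse was at 5.54. Chance alone sets about 1 in 20 such groups apart. The cause was not tested.

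The change from young to old mice, which in the mutants includes end stage, differed between the genotypes in 6 genes by limma's test of the interaction (MO - MY) - (WO - WY). The difference was 2.09 for *Apoe*, 2.27 for *Apoc1*, 1.71 for *Apod*, 0.81 for *Clu*, 2.28 for *Ch25h* and 1.14 for *Plin2* on the log2 scale. Over all genes, 4.65% had a positive and 0.963% a negative interaction past the thresholds. With quantile normalization 5 of the 9 genes passed, without *Clu* (0.56).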

How the results depend on the processing

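The number of the 9 genes past the thresholds was 6 in MY vs. MO under all 18 alternatives except treat (5, without *Apod*) and FDR alone (8, with *Soat1* and *Nr1h3*). In WO vs. MO it was 6 under 20 alternatives except FDR alone (7, with *Soat1*). In the interaction it was 6 under 25 alternatives except quantile normalization (5, without *Clu*), and FDR alone and leaving out WY1 (7 each, with *Soat1* at 0.61 without WY1). Leaving out each mouse gave 6 in both MO comparisons and 6 to 7 in the interaction. In WY vs. WO and WY vs. MY it was 0 throughout. No called gene turned its sign. Signs turned only for genes that were not called. In WO vs. MO, *Nr1h3* was -0.0426 with quantile normalization, and *Abcg1* lay between -0.0251 and 0.0781 with each mouse left out (negative without MO1). In WY vs. WO, *Apoc1*, *Ch25h* and *Soat1* were 0.0576, 0.203 and 0.0194 with batch 1 only, with batch as a term and with the replicate block. With each mouse left out, they spanned -0.31 to 0.0264 (positive without WY1), -0.22 to 0.0641 (positive without WO4 or WO5) and -0.16 to 0.0888 (positive without WO1, WO5, WY2 or WY3), and *Clu* spanned -0.0185 (without WO1) to 0.0631. In WY vs. MY, *Apod* was 0.0360 with quantile normalization. With each mouse left out there, *Apoc1* spanned -0.22 to 0.13 (positive without MY1 or WY1), *Plin2* -0.11 to 0.0163 (without MY2), *Apod* -0.11 to 0.00909 (without WY1) and *Soat1* -0.13 (without WY1) to 0.11. In the interaction, *Abcg1* was 0.0247 with batch 1 only and spanned -0.0889 to 0.0143 (without MO4) with each mouse left out. The causes were not tested. Deviations of same-numbered mice correlated from -0.21 to 0.38 over genes, and not above 0.1 in every pair of any comparison. The mice were therefore treated as unpaired, although a check on so few mice cannot exclude a pairing. The block changed no call among the 9 genes. Over all genes, 890 were called in MY vs. MO, 836 in WO vs. MO, 46 in WY vs. WO, 1 in WY vs. MY and 1020 in the interaction. With 0.1 added to FPKM, 1483, 1529 and 1548 were called in MY vs. MO, WO vs. MO and the interaction, and with FDR alone 4646, 5075 and 3210. Treat gave 608 in the interaction. In WY vs. WO the count was 73 with batch 1 only, 80 with batch as a term, 3 with treat, 204 with FDR alone and 7 (without WY3) to 64 with each mouse left out. In WY vs. MY it was 2 with a mean of at least 1 or an intensity trend, 4 with all groups in 1 fit, and 1 to 5 (without WY1) with each mouse left out. Of the interaction calls 82.8% were positive, and 72.1% with quantile normalization. Depth per gene is unknown, so low genes such as *Ch25h* cannot be given a counting error.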
